A study of Rattus norvegicus with 115 samples.

Results

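Cdkn2a was followed as a transcript of implanted 9L tumours in rat brain, in the tumour and in the opposite hemisphere of the same animals. The gene was chosen by measured values: its intensity is high in tumour arrays and low in contralateral arrays, so the contrast between the tissues is given here as a description, with no test. Of 31099 probe sets, 1 is annotated to exactly this symbol (Entrez Gene 25163), and it is the only member. It was analysed as 1 of 14217 genes with a probe set of their own.

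The series holds 115 arrays from 60 Fisher rats, 59 of tumours and 56 of contralateral brain, and 55 rats gave both. In every rat, 9L rat cells, a cultured line that the labels call glioblastoma, had been placed in the right caudate nucleus. Treatment came 10 days later. The untreated rats carried the tumour and received no irradiation. The MRT rats received microbeams, narrow parallel beams with a peak dose of 400 Gy and a dose of 18 Gy in the valleys between them. The BB rats received a uniform broad beam of about 17 Gy. Tissue was taken 6 h, 48 h, 8 d and 15 d after treatment, and the labels give no untreated group at 15 d. Tumour groups held 5 untreated, 9 MRT and 6 BB arrays at 6 h, 4, 8 and 4 at 48 h, 4, 7 and 4 at 8 d, and 4 MRT and 4 BB at 15 d. Contralateral groups held 5, 9 and 6 arrays at 6 h, 4, 7 and 3 at 48 h, 4, 6 and 4 at 8 d, and 4 MRT and 4 BB at 15 d. All tumours come from 1 implanted cell line, and the host brain and its immune cells are present in the resected tissue. The BB arrays were described separately from the untreated and MRT arrays, with their own processing note, so the beam type and this second set of 35 arrays cannot be told apart.

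Cdkn2a encodes a pair of proteins read in different frames. p16INK4a binds CDK4 and CDK6 and keeps the retinoblastoma protein active, which holds cells before S phase. p19ARF, the rodent form of ARF, binds MDM2 and thereby stabilises p53. Normal adult tissue holds little of either, both rise in ageing and in cells under oncogenic stress, and many gliomas delete the locus. The single probe set does not tell the transcripts of the proteins apart.

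The promoter window is shown because CpG sites in such windows are where silencing of this locus is usually measured. It is the 250 bases before the transcript start that RefSeq's promoter table gives for the gene (build GRCr8), chr5:109107957-109108206 on the minus strand, 5′ to 3′, with each CG dinucleotide in capitals.
Cdkn2a promoter window: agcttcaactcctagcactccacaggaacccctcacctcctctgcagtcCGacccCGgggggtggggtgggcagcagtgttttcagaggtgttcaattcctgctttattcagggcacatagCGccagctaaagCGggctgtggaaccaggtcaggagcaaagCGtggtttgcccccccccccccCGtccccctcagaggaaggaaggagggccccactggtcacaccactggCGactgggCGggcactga
The window holds 8 CG dinucleotides and 62.8% of its bases are G or C. At least 8 were found in 41.6% of 33469 rat promoter windows of this length, whose median was 5. That start lies inside the gene's annotated span, so the window is not upstream of every transcript of Cdkn2a. Methylation was not analysed here.

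Cdkn2a was among the transcripts that differed most between tumour and opposite hemisphere. Values are the authors' array intensities on a linear scale, and differences are given on the log2 scale. In the 59 tumour arrays the intensity ran from 35 to 3617 with a median of 1947, and within an array it stood between percentiles 25.1 and 97.6 of all genes, with a median of 94.1. In the 56 contralateral arrays it ran from 15 to 268 with a median of 21, at a median percentile of 12.1. The tumour was higher in 55 of 55 rats with both tissues, by 2.06-fold to 193-fold, with a median of 76.9-fold. In untreated rats, over all times, tumours exceeded contralateral tissue by 6.28 ± 0.33 (log2, SE), the third highest difference of 14217 genes. The mean contralateral level stood at percentile 8.81 of all genes, where intensity may be largely background, so these folds describe measured intensities and the ratio of transcript may be larger. No array of cultured 9L cells is used here. Bulk tissue does not show which cells held it, and fewer cells of a type and less RNA per cell cannot be told apart.

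Some arrays stood apart before any comparison. The mean log2 intensity of 20 neuronal genes was 11.3 to 11.9 in contralateral arrays and 7.45 to 11.2 in tumour arrays. Among the tumour arrays with the highest neuronal means were MRT rats 37 and 38 at 8 d (10.9 and 11.0), MRT rats 6, 12 and 14 at 6 h (11.2, 11.1 and 11.1), untreated rat 5 at 6 h (11.2) and MRT rat 25 at 48 h (11.1). Their Cdkn2a intensities were 51 and 35 at 8 d, 395, 798 and 926 in the MRT rats at 6 h, 808 in rat 5 and 679 in rat 25, while untreated rat 18 at 48 h held 2375 at a neuronal mean of 10.9. BB rat 47 at 6 h held 400 for Cdkn2a against 1889 to 3515 in the other BB tumours of that time. The contralateral array of untreated rat 18 at 48 h had an astrocyte mean of 9.73, against 11.1 to 11.6 in all other contralateral arrays.

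**Figure D1:**
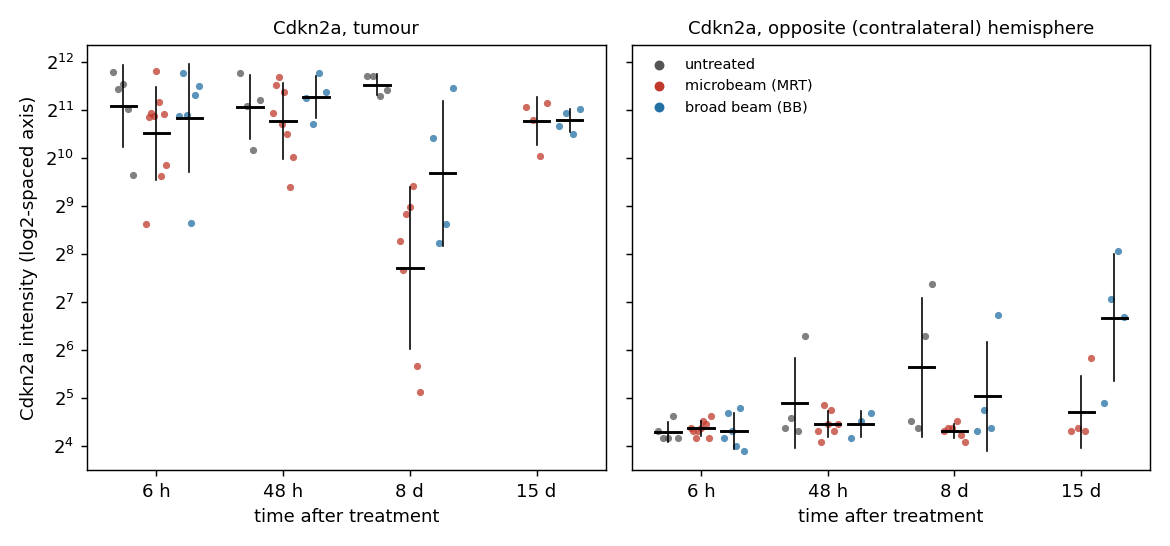
Cdkn2a intensity (log2-spaced axis) in each tumour array (left) and contralateral array (right) by time after treatment, 1 point per rat. Horizontal bars are group means of log2 values and vertical bars are 1 SD. All 7 MRT tumours at 8 d lie at 692 or below, the 4 untreated tumours of that time lie at 2511 or above, and 48 of 56 contralateral arrays lie at 30 or below.

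The order of tumour groups by mean log2 level ran from untreated 8 d (11.54 ± 0.21, SD, n = 4) through BB 48 h (11.28 ± 0.43), untreated 6 h (11.10 ± 0.85), untreated 48 h (11.06 ± 0.67), BB 6 h (10.84 ± 1.13), BB 15 d (10.79 ± 0.24), MRT 48 h (10.78 ± 0.79), MRT 15 d (10.77 ± 0.50) and MRT 6 h (10.53 ± 0.97) to BB 8 d (9.69 ± 1.52) and MRT 8 d (7.71 ± 1.68). Every pair of neighbours in this order overlapped in range. The gap between BB 8 d and MRT 8 d, 1.97, was the only one larger than the SD of both groups it separates. The contralateral order was led by BB 15 d (6.68 ± 1.32, n = 4), untreated 8 d (5.65 ± 1.45, n = 4) and BB 8 d (5.05 ± 1.14, n = 4). Untreated 48 h (4.90 ± 0.94) and MRT 15 d (4.72 ± 0.74) followed, and the other 6 group means lay between 4.30 and 4.47. All neighbours there overlapped as well.

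At 8 d Cdkn2a was far lower in MRT tumours than in untreated ones. The untreated tumours of rats 27, 28, 29 and 30 held 3375, 3358, 2511 and 2733. The 7 MRT tumours ran from 35 to 692 with a median of 309, and the groups did not overlap. The 2 lowest values, 51 and 35, came from rats 37 and 38, whose neuronal means were the highest of that group. The difference was -3.82 ± 0.61 (log2, SE), a 14.1-fold lower level (limma, adjusted p = 1.35e-06). It was the 34th lowest of 14217 differences in a comparison in which 47.8% of all genes were called at an adjusted p under 0.05. With the arrays of rats 37 and 38 left out, together with BB rat 47 at 6 h, it was -2.90 (limma, adjusted p = 8.57e-06). With the neuronal mean of each array as a covariate it was -2.50 (limma, adjusted p = 2.11e-05).

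The BB tumours at 8 d were split. Rats 54 and 57 held 1367 and 2822, the latter within the untreated range, and rats 55 and 56 held 301 and 397, within the MRT range. Against the untreated tumours the difference was -1.85 ± 0.69, or 3.60-fold (limma, adjusted p = 0.0439), with 22.9% of all genes called. Leaving out rat 55 gave -1.37 (limma, adjusted p = 0.198) and leaving out rat 56 gave -1.50 (adjusted p = 0.163). Leaving out untreated rat 27, 28, 29 or 30 also ended the call, at -1.79, -1.79, -1.93 and -1.89 with adjusted p-values of 0.099, 0.087, 0.054 and 0.070. Of the other alternatives, shifting arrays to a common median, the neuronal covariate and a fit of the compared groups alone ended it too. MRT tumours were lower than BB tumours by 1.97 ± 0.61 (log2 difference -1.97), the 9th lowest difference of all genes, and this did not pass (limma, adjusted p = 0.0727), with 1.27% of all genes called. With 1 array left out it ran from -2.46 (without BB rat 55, limma, adjusted p = 0.0101) to -1.38, with adjusted p-values up to 0.595. With array quality weights it was -2.27 (limma, adjusted p = 1.2e-07). Those weights were 37.35 for BB rat 54 and 0.40, 0.49 and 0.25 for rats 55, 56 and 57. The weighted value therefore rests largely on rat 54 on the BB side.

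Earlier after treatment no such difference was found. At 6 h the untreated tumours of rats 1 to 5 held 3564, 2791, 3007, 2090 and 808, the MRT tumours ran from 395 to 3617 (median 1894) and the BB tumours from 400 to 3515 (median 2232.5). All 3 groups overlapped across most of their range. MRT minus untreated was -0.57 ± 0.54 (limma, adjusted p = 0.875, 1.42% of genes called), BB minus untreated -0.26 ± 0.59 (adjusted p = 0.785, 10.3% of genes called higher and 7.09% lower) and MRT minus BB -0.31 ± 0.51 (adjusted p = 0.711, 15.7%). At 48 h the untreated tumours held 3515, 2185, 1152 and 2375, the BB tumours 2437, 1687, 3489 and 2661, and the MRT tumours 679 to 3327 (median 1834). These groups overlapped too. MRT minus untreated was -0.29 ± 0.59 (limma, adjusted p = 0.886, 2.35% of genes called), BB minus untreated 0.22 ± 0.69 (adjusted p = 0.892, 2.6%) and MRT minus BB -0.50 ± 0.59 (adjusted p = 0.957). No gene was called in the last comparison (0%), and 515 had an unadjusted p under 0.05. The MRT effect at 8 d minus that at 6 h was -3.25 ± 0.81 (limma, adjusted p = 0.00273, 27.5% of genes called). The same difference of BB effects was -1.59 ± 0.90 (adjusted p = 0.21, 14.6%), and -2.03 (adjusted p = 0.034) without the arrays of rats 37, 38 and 47.

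Over time, MRT tumours dropped to their low level at 8 d and stood high again at 15 d, in different rats. From 48 h to 8 d the MRT groups differed by -3.06 ± 0.50 (limma, adjusted p = 3.28e-06, 30.8% of genes called), the 5th lowest difference of all genes. Their ranges met only at rat 25 (679 at 48 h) and rat 36 (692 at 8 d). The MRT tumours at 15 d held 2135, 1791, 1063 and 2282 in rats 40 to 43, all above the 7 at 8 d. This difference was 3.05 ± 0.61 (limma, adjusted p = 0.000271), the 11th highest of all genes, with 27.9% of genes called. From 6 h to 48 h the MRT difference was 0.25 ± 0.47 (adjusted p = 0.791, 9.77%).

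No difference between times passed in untreated tumours. The difference of 48 h minus 6 h was -0.03 ± 0.65 (limma, adjusted p = 1, 0% of genes called and 536 genes at an unadjusted p under 0.05), 8 d minus 48 h 0.47 ± 0.69 (adjusted p = 0.647, 18.2%) and 8 d minus 6 h 0.44 ± 0.65 (adjusted p = 0.633, 29.2%). In BB tumours, 48 h minus 6 h was 0.44 ± 0.63 (limma, adjusted p = 0.652, 23.5% of genes called), 8 d minus 48 h was -1.59 ± 0.69 (adjusted p = 0.117, 10.5%) and 15 d minus 8 d was 1.10 ± 0.69 (adjusted p = 0.391, 1.7%). The BB difference from 48 h to 8 d was called without BB rat 57 (-2.18, adjusted p = 0.031) and without the arrays of rats 37, 38 and 47 (-1.59, adjusted p = 0.040). With other single arrays left out it reached -1.11, and limma adjusted p-values reached 0.414. The BB tumours of rats 58 to 61 at 15 d held 1625, 1972, 1460 and 2099, inside the range of the MRT tumours of that day, and MRT minus BB was -0.02 ± 0.69 (limma, adjusted p = 0.995, 3.05%).

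Genes of mitosis and DNA replication fell with Cdkn2a at 8 d after MRT, with smaller log2 differences. All 30 measured genes of a mitosis list were lower in MRT than in untreated tumours, with a median difference of -1.62 against -0.04 over all genes, and 26.1% of all genes were called lower. Top2a, the topoisomerase that untangles chromosomes, changed by -2.13 ± 0.45 (limma, adjusted p = 0.000111), Ccnf, which encodes cyclin F, by -1.16 ± 0.25, and Ect2, a cytokinesis factor, by -2.07 ± 0.47. The proliferation marker Mki67 changed by -1.63 ± 0.47 (adjusted p = 0.00357), the mitotic kinase Cdk1 by -1.72 ± 0.39 and its cyclin Ccnb1 by -1.37 ± 0.39. Of 28 measured replication genes 23 were lower, with a median of -1.15, among them the polymerase subunit Pola2 (-1.74 ± 0.31), the thymidine kinase Tk1 (-1.99 ± 0.40) and the helicase subunit Mcm6 (-1.16 ± 0.39). The clamp gene Pcna did not pass (-0.25 ± 0.16, adjusted p = 0.2). Without rats 37 and 38 (and 47) 26 of the 30 mitosis genes and 18 of the 28 replication genes were called lower, against 22.3% of all genes, and with the neuronal covariate 9 and 9, against 18.1%. In BB tumours at 8 d none of the 30 mitosis genes passed (limma, median -0.68, 5 at an unadjusted p under 0.05) and 3 of 28 replication genes were lower, against 14.5% of all genes. Without rats 37, 38 and 47 the mitosis count was 5, against 16.1%. From 8 d to 15 d after MRT 26 mitosis and 12 replication genes rose, with medians of 1.37 and 0.87, against 16.1% of all genes. That rise counted 13 mitosis and 4 replication genes without rats 37 and 38, against 9.92% of all genes.

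At 6 h some mitosis genes were lower than in untreated tumours, while the differences of Cdkn2a itself (-0.57 after MRT, -0.26 after BB) did not pass. After MRT 6 of the 30 were lower at 6 h (median -0.84, with 0.408% of all genes called lower), led by Cdc20, an activator of the anaphase complex (-2.09 ± 0.39), Plk1 (-1.44 ± 0.31) and Aurka (-1.44 ± 0.33), both mitotic kinases. After BB 6 were lower as well (median -0.53, against 7.09% of all genes), again led by Plk1, Cdc20 and Aurka. Of the 28 replication genes limma called 0 after MRT (0 at an unadjusted p under 0.05). After BB it called 3, all higher, which is near the 10.3% of all genes called higher. Cdkn2a minus the mitosis mean was higher than in untreated tumours by 0.34 after MRT and 0.27 after BB, and neither difference passed (exact permutation, adjusted p = 0.334 and 0.402). By 48 h none of the 30 was called after MRT or after BB, and none had an unadjusted p under 0.05.

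Across the 59 tumour arrays the Cdkn2a level followed the mean of the mitosis list with Pearson r = 0.83 and Spearman rho = 0.76. In permutation tests p was 1e-05 for each, the smallest that 100000 permutations can give, and 2.9e-05 and 6.7e-05 adjusted over 20 relations. Without the 2 arrays farthest from the median mitosis level r was 0.76. It was 0.85 among the 41 tumours of the untreated and MRT set, 0.79 among the 18 BB tumours, 0.79 without the MRT group at 8 d, and 0.91 for deviations from the group means. With the replication list r was 0.89. The level of the neuronal list ran the other way, with r = -0.37 over arrays (permutation, adjusted p = 0.007) and -0.72 for deviations from group means, so arrays of 1 group that held more neuronal signal held less Cdkn2a. All of these share the arrays and their content of tumour and brain RNA, whose part in the relation was not tested.

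**Figure D2:**
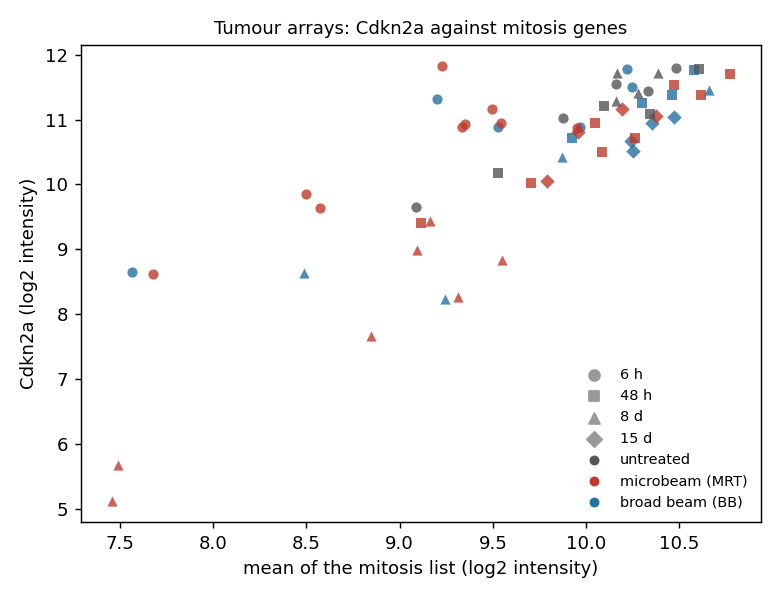
Cdkn2a (log2 intensity) against the mean of 30 mitosis genes (log2 intensity) in 59 tumour arrays, coloured by treatment and shaped by time. The red triangles are the 7 MRT arrays at 8 d, whose Cdkn2a minus mitosis mean averages -0.99, and the red circles the 9 MRT arrays at 6 h, where it averages 1.45.

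Cdkn2a fell further than the mitosis list at 8 d. The quantity compared is the log2 level of Cdkn2a minus the mean log2 level of the 30 genes on the same array. Its absolute size depends on the probes, so only its differences between arrays are read. These can still depend on the probes and on how much brain RNA an array holds. In the contralateral arrays with the most Cdkn2a the quantity ran from -1.18 (BB rat 58 at 15 d) to 0.04 (untreated rat 30 at 8 d). In the 48 contralateral arrays with Cdkn2a at 30 or below, its log2 level was at most 4.91 and the mitosis mean was 5.31 to 6.73. The quantity was thus negative in all of these, at Cdkn2a levels that may be largely background. The part of this in the tumour differences was not tested. In untreated tumours at 8 d the quantity was 1.29 ± 0.20 (SD, n = 4), with all arrays between 1.14 and 1.55. In MRT tumours it was -0.99 ± 0.91 (n = 7), between -2.33 and 0.27. The groups did not overlap. The difference of -2.28 had p = 0.00303 in a two-sided exact permutation test, the smallest p that 7 against 4 arrays allow, and 0.0192 adjusted over 19 comparisons. With replication genes in place of mitosis genes it was -2.70 (exact permutation, adjusted p = 0.058), and without rats 37 and 38 it was -1.84 (adjusted p = 0.101). Leaving out any of the 4 untreated arrays gave -2.33 to -2.19 (exact permutation, adjusted p = 0.053). With fewer untreated arrays the smallest p that the test allows is larger.

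In BB tumours at 8 d it was 0.12 ± 0.80 (n = 4), with -1.01 in rat 55 and 0.80 in rat 57. All 4 lay below the untreated arrays, by 1.17 on average (log2 difference -1.17, exact permutation p = 0.0286, the smallest 4 against 4 allow, adjusted p = 0.109). MRT minus BB at 8 d was -1.11 (exact permutation, adjusted p = 0.192). Between 6 h and 48 h after MRT the quantity fell by 0.81, from 1.45 ± 0.51 (n = 9) to 0.64 ± 0.30 (n = 8), in an exact permutation test with adjusted p = 0.00703. The fall came with a rise of the mitosis genes, 15 of 30 of which were called higher at 48 h than at 6 h, against 7.58% of all genes. Measured against the replication genes instead, the change was 0.20 and did not pass (adjusted p = 0.505). From 48 h to 8 d after MRT it fell by 1.63 more (exact permutation, adjusted p = 0.00295, groups not overlapping), and from 8 d to 15 d it differed by 1.68 (exact permutation, adjusted p = 0.072, and 0.043 with the median of the mitosis list). It was 0.69 ± 0.31 in MRT and 0.46 ± 0.15 in BB tumours at 15 d (n = 4 each, exact permutation, adjusted p = 0.334).

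**Figure D3:**
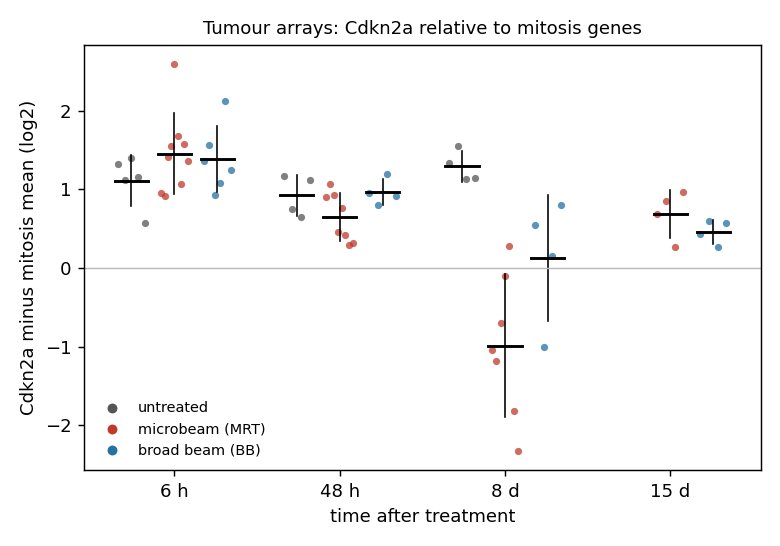
Cdkn2a minus the mean of the mitosis list (log2) in each tumour array by time and treatment, with group means (horizontal bars) and 1 SD (vertical bars). The MRT arrays at 8 d reach from -2.33 to 0.27, and the untreated arrays of that time from 1.14 to 1.55.

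Of 6 other measured CDK inhibitors 3 fell with Cdkn2a at 8 d after MRT and 1 rose. Of all genes 26.1% were called lower and 21.8% higher in that comparison. At 8 d after MRT Cdkn2b, which encodes the related inhibitor p15INK4b from the adjacent gene, was lower by 1.38 on the log2 scale (-1.38 ± 0.35, limma, adjusted p = 0.00111). Its intensities were 220, 258, 112 and 109 in untreated and 44 to 82 in MRT tumours, without overlap. Cdkn2c (p18INK4c) changed by -1.73 ± 0.34 and Cdkn1b (p27KIP1, an inhibitor of CDK2) by -1.03 ± 0.15. A dimmer probe set of Cdkn2c showed -0.02 ± 0.16 and was not called, while both probe sets of Cdkn1b were called lower. The p53 target Cdkn1a (p21) went the other way, by 1.46 ± 0.23 (limma, adjusted p = 8.73e-07), from 793 to 879 in untreated to 2004 to 3014 in MRT tumours. Cdkn2d (p19INK4d) and Cdkn1c (p57KIP2) did not pass (-0.23 ± 0.12 and 0.41 ± 0.41). In BB tumours at 8 d Cdkn1b was lower (-0.95 ± 0.17) and Cdkn1a higher (0.86 ± 0.25), and Cdkn2b and Cdkn2c did not pass (-0.75 ± 0.40 and -0.98 ± 0.38). At 6 h after MRT Cdkn1a was already higher by 2.53 ± 0.20 (limma, adjusted p = 3.83e-13), and after BB by 2.03 ± 0.22, while the other 5 inhibitors and Cdkn2a were not called in either comparison.

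Of 5 measured neighbours on the chromosome, Mtap and Cdkn2b were lower at 8 d after MRT, when 26.1% of all genes were called lower. In RefSeq the gene lies between Mtap, which encodes the methionine salvage enzyme, and Cdkn2b. Mtap was lower at 8 d after MRT by 1.29 on the log2 scale (-1.29 ± 0.39, limma, adjusted p = 0.00572), and its 2 dimmer probe sets were lower as well (-2.11 ± 0.33 and -1.38 ± 0.37). It held 1202 to 1529 in the untreated tumours and 216 to 1080 in the MRT tumours. At 15 d after MRT it stood at 1549 to 2725, higher than at 8 d by 1.71 ± 0.39 (limma, adjusted p = 0.00121). The more distant Dmrta1, Klhl9 and Elavl2 did not pass at 8 d after MRT (-0.05 ± 0.09, -0.02 ± 0.16 and 1.00 ± 0.46), and none of the 5 neighbours passed in BB tumours of that day.

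**Figure D4:**
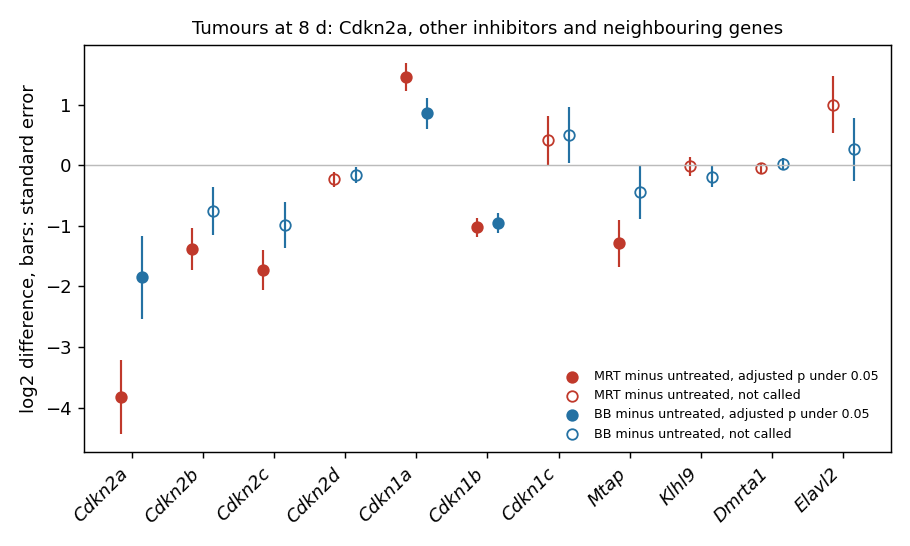
Log2 differences from untreated tumours at 8 d, with standard errors, for Cdkn2a, 6 other CDK inhibitors and 4 further genes of the same chromosomal region, after MRT (red) and BB (blue). Filled points passed an adjusted p under 0.05 in limma. Cdkn2a has the lowest value in both treatments and Cdkn1a the highest.

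In the pathway that p16INK4a acts on, 12 of 20 measured genes were lower and 4 higher at 8 d after MRT (median -0.60), against 26.1% and 21.8% of all genes, so only the count of lower genes stands away from the background share. Cdk4, the kinase it inhibits, changed by -2.00 ± 0.31 (limma, adjusted p = 1.03e-06), Ccnd2, a D cyclin, by 2.14 ± 0.31, and Rb1, the retinoblastoma gene, by 0.85 ± 0.15. After BB 4 were lower and 2 higher, near the 14.5% and 8.36% of all genes, among them Cdk4 (-1.26 ± 0.35), Ccnd3 (-1.11 ± 0.30) and Rb1 (0.69 ± 0.17). Without rats 37 and 38 the MRT counts were 10 lower and 4 higher, against 22.3% and 17.7% of all genes.

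On the ARF and p53 side, 5 of 22 genes were higher and 3 lower at 8 d after MRT, which is near or below the shares of all genes (21.8% and 26.1%). The largest test statistics belonged to Ubtf, a ribosomal RNA transcription factor (-1.16 ± 0.18), and the p53 targets Aen (0.85 ± 0.14) and Ccng1 (1.65 ± 0.28). The same list had 9 higher and 0 lower at 6 h after MRT, when 1.01% of all genes were called higher, led by Aen (1.40 ± 0.12), Mdm2, which marks p53 for degradation and is bound by ARF (1.12 ± 0.12), and the death receptor Fas (1.43 ± 0.21), and 8 higher at 48 h, against 1.86% of all genes. After BB 9 were higher and 2 lower at 6 h, against 10.3% and 7.09% of all genes, and 4 higher at 48 h, against 1.37%. Cdkn2a was not called in any of those comparisons.

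Of 19 genes that regulate the INK4 locus, 12 were lower and 1 higher at 8 d after MRT (median -0.77), against 26.1% and 21.8% of all genes. They included Id1, which blocks activation of p16INK4a by ETS factors (-2.41 ± 0.33), Twist1 (-4.19 ± 0.61) and the Polycomb gene Pcgf2 (-1.63 ± 0.24). After BB 8 were lower, against 14.5% of all genes, led by Pcgf2 (-1.13 ± 0.27), Id1 (-1.51 ± 0.37) and the demethylase gene Kdm6b (-1.25 ± 0.34). A list of genes linked to senescence and its secretory state had 8 of 23 higher and 7 lower after MRT, not far from the 21.8% and 26.1% of all genes. The protease gene Plau (2.15 ± 0.27) and the interleukins Il1b (2.86 ± 0.43) and Il1a (2.92 ± 0.45) were the strongest.

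The genes whose level was most like that of Cdkn2a over the 59 tumour arrays, by Pearson r on log2 values, were Prrx2 (0.98) and Twist1 (0.98), both transcription factors of mesenchyme, Pcolce (0.97), an enhancer of procollagen processing, Col5a2 (0.97), a fibrillar collagen, Nt5dc2 (0.97), Pxdn (0.97), a matrix peroxidase, Fstl1 (0.96), Gpx7 (0.96), Olfml3 (0.96) and Glod5 (0.96). The 99th percentile over all genes was 0.89. At the other end stood Chrdl1 (-0.84), Rnf113a2 (-0.82), Heca (-0.82), Nedd9 (-0.81) and Crebrf (-0.80). Among proliferation genes r was 0.92 for Top2a, 0.83 for Mcm6, 0.79 for Mki67 and 0.62 for Pcna, and among inhibitors 0.91 for Cdkn2c, 0.70 for Cdkn2b and -0.32 for Cdkn1a. Mtap had 0.87. These are descriptions over arrays that share tumour content and depth of signal.

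The likeness used the 8 d arrays too, so the 8 d values of the 10 most similar genes follow in part from their choice and are given as a description. Prrx2 held 3640 to 4871 in the untreated and 53 to 553 in the MRT tumours, a difference of -4.41 ± 0.56, and a dim second probe set of this gene showed -0.25 ± 0.14. Twist1 held 3298 to 4309 and 26 to 790. In both genes, as in Cdkn2a, rats 37 and 38 had the lowest values and rat 36 the highest of the MRT group. The other 8 of the 10 differed by -3.76 (Olfml3) to -2.45 (Gpx7), each by less than Cdkn2a (-3.82). After BB Prrx2 differed by -2.48 ± 0.64 and Twist1 by -2.08 ± 0.68, and the other 8 by -2.04 (Olfml3) to -0.98 (Pcolce). Of 22 genes of a mesenchymal and matrix list, which holds Prrx2, 20 were lower after MRT (median -2.83, against 26.1% of all genes called lower), led by Pdgfrb, Col3a1 and Col6a1 (-3.56, -3.77 and -3.80), and 15 after BB (median -1.67, against 14.5% of all genes). At 15 d after MRT 15 were higher than at 8 d, against 16.1% of all genes. Without rats 37 and 38 the MRT count at 8 d was 18, against 22.3%.

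Neuronal, oligodendrocyte, macrophage and T and NK cell genes were mostly higher at 8 d after MRT, where Cdkn2a was lower. Endothelial genes were not, with 2 of 11 higher and 2 lower. After MRT 13 of 20 neuronal, 10 of 10 oligodendrocyte, 12 of 12 macrophage and monocyte and 16 of 16 T and NK cell genes were higher than in untreated tumours, against 21.8% of all genes. Medians were 1.32, 1.78, 2.19 and 2.37. The mean log2 level of the macrophage list ran from 10.3 to 11.7 in the MRT tumours and from 8.34 to 9.52 in the untreated ones. That of the T and NK list ran from 8.74 to 10.4 and from 6.25 to 8.00, and that of the neuronal list from 9.15 to 11.0 and from 8.05 to 9.46. After BB 1, 2, 5 and 2 of these genes were higher, against 8.36% of all genes. The neuronal count lay below that share, and the macrophage and monocyte count, 5 of 12, lay furthest above it. Without rats 37 and 38 the MRT counts were 4, 8, 12 and 16, against 17.7% of all genes. In MRT tumours at 15 d, where Cdkn2a was high again, the macrophage mean was still 10.0 to 10.9 and the T and NK mean 8.45 to 9.65. The part of this change in cell content in the level of Cdkn2a was not tested, other than with the neuronal covariate given above.

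In the opposite hemisphere Cdkn2a was at or below 30 in 48 of 56 arrays, and 8 arrays lay above, between 57 and 268. The threshold of 30 was set after the values were seen. The highest array at or below it held 30 (BB rat 58 at 15 d) and the lowest above it 57. The 8 arrays were BB rats 60 (268), 59 (134) and 61 (104) at 15 d, BB rat 57 at 8 d (106), untreated rats 30 (167) and 29 (79) at 8 d, untreated rat 18 at 48 h (79) and MRT rat 43 at 15 d (57). None came from 6 h, and none from the 7 MRT rats of 48 h, the 6 of 8 d or the 3 BB rats of 48 h.

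Proliferation and matrix genes were high in most of the same contralateral arrays. The mitosis mean was 6.92 to 8.27 in the 5 arrays with Cdkn2a at 104 or more, all above the 48 (5.31 to 6.73), and 6.53 to 6.69 in the other 3, within that range. The matrix mean was 8.14 to 9.70 in 7 of the 8, above the 48 (6.88 to 8.00), and 7.63 in rat 18. Intensities in rat 60 were 836 for Mki67, 757 for Top2a and 496 for Ccnb1, against 31 to 143 for Top2a and 127 to 212 for Ccnb1 in the 48. Rat 30 held 306, 321 and 314 for these genes. Neuronal means in the 8 arrays, 11.4 to 11.8, lay within the range of the 48. The part of tumour cells in these samples was not tested.

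The 5 genes most like Cdkn2a over contralateral arrays, ranked by Pearson r, were Twist1, Magea9, Fstl1, Pimreg and Pcolce. The arrays fall into separate clusters, so no r is given. Twist1 held 480 in rat 60, 508 in rat 30 and 18 to 55 in the 48 arrays. Magea9, a gene of the cancer-testis family, held 275 and 432 in these rats and 11 to 32 in the 48. Fstl1 held 3289 and 2051 against 440 to 763, Pcolce 1438 and 1005 against 80 to 227, and Pimreg, a mitotic gene, 209 and 151 against 18 to 52. Rat 18 differed from the others, with 79 for Cdkn2a beside 20 for Magea9, 34 for Mki67 and 35 for Prrx2. That array also had the lowest Mtap (32, against 73 or more in the others) and the highest Cdkn2b (121).

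**Figure D5:**
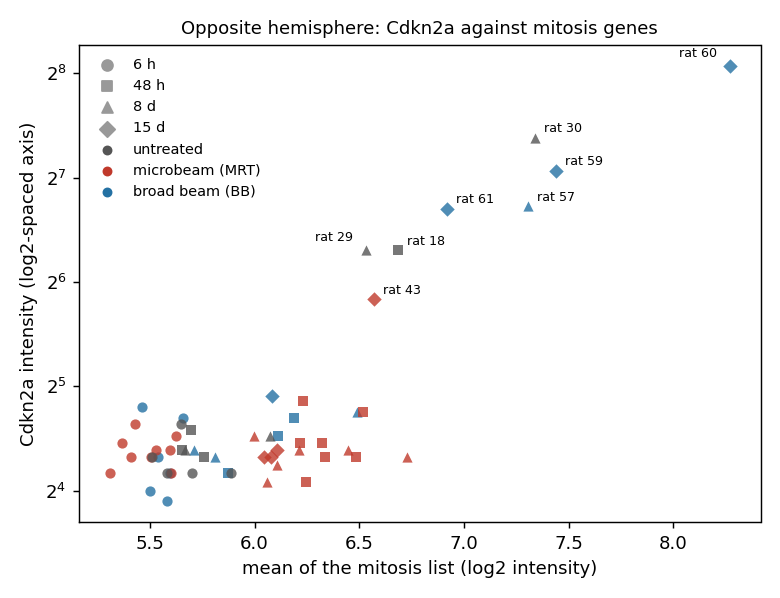
Cdkn2a intensity (log2-spaced axis) against the mean of the mitosis list (log2 intensity) in 56 contralateral arrays, coloured by treatment and shaped by time. The 8 arrays above 30 are marked with the rat, and rat 60 is highest on both axes.

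At 48 h after MRT the contralateral mitosis mean was 6.22 to 6.52 and Cdkn2a 17 to 29 in the 7 rats. In the untreated rats of that time the mitosis mean was 5.65 to 5.76 in rats 15, 16 and 17 and 6.69 in rat 18, above all 7 MRT rats. In this comparison 3 of 30 mitosis genes were higher, a share below the 13.2% of all genes: Ccna2 (1.55 ± 0.42), Mki67 (1.63 ± 0.46) and Ect2 (1.16 ± 0.44). Cdkn2a differed by -0.43 ± 0.41 (limma, adjusted p = 0.417) with 32.2% of all genes called. With 1 array left out this difference ran from -0.63 to 0.03, and 1214 to 5981 genes were called. The counts and shares given here include rat 18, whose contralateral array stood apart in its astrocyte mean (9.73) and had an array quality weight of 0.02.

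The contralateral comparisons between treatments rested on the few high arrays. At 8 d the untreated rats 39, 28, 29 and 30 held 23, 21, 79 and 167 and the 6 MRT rats 17 to 23, a difference of -1.32 ± 0.42 (limma, adjusted p = 0.0414, 7.91% of genes called). Without rat 30 it was -0.75 (adjusted p = 0.413), without rat 29 it was -1.11 (adjusted p = 0.149), and in a fit of these groups alone it did not pass (adjusted p = 0.086). At 15 d the BB rats 58, 59, 60 and 61 held 30, 134, 268 and 104 and the MRT rats 40 to 43 held 20, 21, 20 and 57. The groups overlapped at rat 43, and MRT minus BB was -1.97 ± 0.46 (limma, adjusted p = 0.00551, 5.87% of genes called), the 10th lowest of all genes. Without rat 60 it was -1.51 (adjusted p = 0.062), and in a fit of these groups alone it did not pass either (adjusted p = 0.058). In the same comparison 12 of 30 mitosis and 6 of 22 matrix genes were lower after MRT, against 1.75% of all genes, among them Ccnb1 (-0.87 ± 0.21), Kif23 (-1.40 ± 0.34), Lox (-2.44 ± 0.44) and Loxl2 (-1.44 ± 0.36). Without rat 60 these counts were 0 and 1, against 0.57% of all genes.

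The other contralateral differences did not pass in limma. MRT minus untreated at 6 h was 0.08 ± 0.37 (adjusted p = 0.951, 8.22% of genes called). BB minus untreated was 0.02 ± 0.40 at 6 h (adjusted p = 0.978, 21.6%), -0.44 ± 0.50 at 48 h (adjusted p = 0.523, 21.6%) and -0.60 ± 0.46 at 8 d (adjusted p = 0.516, 5.94%). The BB difference at 48 h ran from -0.63 to 0.03 with 1 array left out. MRT minus BB was 0.06 ± 0.35 at 6 h (adjusted p = 0.953, 5.39%), 0.00 ± 0.45 at 48 h (adjusted p = 1, 1.94%) and -0.72 ± 0.42 at 8 d (adjusted p = 0.505, 3.02%). In the irradiated opposite hemispheres 11 of 22 genes of the ARF and p53 list were higher at 6 h after MRT, against 5.36% of all genes, and 11 after BB, against 8.92%. Cdkn1a was higher by 3.92 ± 0.19 after MRT and by 3.39 ± 0.21 after BB, while Cdkn2a lay between 15 and 28 in all irradiated rats of that time.

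The MRT effect at 8 d in the tumour minus that in the opposite hemisphere was -2.50 ± 0.76 (log2, limma, adjusted p = 0.00712, 37% of genes called). The contralateral level was near the lowest on the array in 2 of 4 untreated and all 6 MRT rats, which left little room for a fall there, and the contralateral effect rests on rats 29 and 30. The corresponding difference for BB was -1.25 ± 0.85 (adjusted p = 0.338, 7.76%). Within rats, the fold from contralateral tissue to tumour was lowest in the MRT rats at 8 d, 2.06 to 22.0 in 6 rats with a median of 12.6. It was 11.1 to 68.4 in BB rats at 8 d (n = 4), 16.4 to 160 in the 3 untreated rats with both tissues, and 40.0 to 107 in MRT rats at 15 d (n = 4). In BB rats at 15 d it was 5.45 to 54.2 (n = 4), where the tumours were as high as in MRT rats and the contralateral arrays were the highest of the series.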

How the data were processed

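RNA of resected tumours and contralateral tissue was labelled from 200 ng and hybridised to Affymetrix rat arrays, per the labels' protocols. The authors deposited 1 intensity per probe set and array. Per the submitters' processing notes, Affymetrix Expression Console was used with MAS5 and RMA for the untreated and MRT arrays and RMA for the BB arrays. The deposited values are linear intensities (7 to 27837, array medians 117 to 165), although log2 values had been assumed when the tests were planned, so log2 was taken. The number of arrays limits the precision.

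Probe sets carrying a single symbol (20826 of 31099; 57 controls, 436 with more symbols and 9780 unnamed were not used) gave 14217 genes. For the 4525 genes with several, the brightest on average was taken. Per tissue, group means were fitted to all genes with limma 3.58.1 (R 4.3.3; eBayes with a variance trend), with Benjamini-Hochberg adjustment over all genes and a call at 0.05. Tissue contrasts used a fit over both tissues. Cdkn2a minus the mitosis mean was compared by two-sided exact permutation tests (scipy 1.17.1), correlations by 100000 permutations. The code was checked on simulated data. Replicates are separate rats by the labels, and rats are paired across tissues because tumour and contralateral tissue came from the same animal. In 38 of 55 rats the deviations of the tissues correlated above 0.1 (median 0.186, other rats -0.043). The alternatives were quantile and median normalization, log2(value + 16), a filter on the dimmest 30% of genes, all or averaged probe sets, 1 variance prior, array weights, compared groups alone, the untreated and MRT set alone, a rat block, neuronal and Gapdh covariates, and left-out arrays.

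The gene, the lists and the tests were chosen with earlier results of these data known. Genes named are Cdkn2a, the 10 most and 5 least similar over tumour arrays and 5 most similar over contralateral arrays, fixed proliferation genes (Rrm2 was not measured here), all CDK inhibitors and locus neighbours, and up to 3 called genes per other list with the largest test statistic in each comparison described. Prrx2 is also in the matrix list and Twist1 in the list of INK4 regulators.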

Additional observations from a re-analysis of the deposited data

Results flagged for a closer look

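Of 32 tests of a group of 4 to 9 arrays for a value far from the others, 4 found one, where chance gives about 1 in 20. Tumour groups were tested for Cdkn2a and again for Cdkn2a minus the mitosis mean on the same arrays, so these tests are not independent. The highest of 9 MRT tumours at 6 h in Cdkn2a minus the mitosis mean was rat 10 at 2.59, with a Cdkn2a intensity of 3617. The lowest of 6 BB tumours at 6 h was rat 47 at a Cdkn2a intensity of 400, with a mitosis mean of 7.56 against 9.20 or more in the other tumours of that group. In the opposite hemisphere, untreated rat 18 at 48 h held 79, far above the other 3 of its group, and MRT rat 43 at 15 d held 57, far above its group's 20, 21 and 20.

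The MRT effect on Cdkn2a differed between times, and between tissues with the contralateral level near the lowest on the array. The difference of the effect in tumours at 8 d from that at 6 h was -3.25 (limma, adjusted p = 0.00273). The difference of the effect at 8 d in tumours from that in the opposite hemisphere was -2.50 (limma, adjusted p = 0.00712).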

How the results depend on the processing

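Of 770 values recomputed under alternatives, 740 kept direction and call, 20 lost the call, 9 gained it and 1 changed sign. Cdkn2a was called lower in MRT than in untreated tumours at 8 d under every alternative run, between -3.90 and -2.50. BB minus untreated tumours at 8 d was -1.77 (adjusted p = 0.054) with arrays shifted to a common median, -1.85 (0.101) in a fit of the compared groups alone, -1.24 (0.054) with the neuronal covariate, and -2.44 to -1.37 with an array left out. MRT minus BB tumours at 8 d was -2.27 with array weights and -2.46 to -1.38 with an array left out. The array weights gave BB rat 54 a weight of 37.35 and the other BB tumours of that day 0.25 to 0.49. BB tumours at 8 d minus 48 h gave -1.01 with array weights, -2.15 with the neuronal covariate, -1.59 without rats 37, 38 and 47, and -2.18 to -1.11 with an array left out. The BB effect at 8 d minus 6 h was -2.03 without those rats. In contralateral tissue, MRT minus untreated at 8 d was -1.32 (adjusted p = 0.086) in a fit of the compared groups alone and -1.74 to -0.75 with an array left out, MRT minus BB at 8 d was -1.07 with array weights, and MRT minus BB at 15 d was -1.97 (adjusted p = 0.058) in a fit of the compared groups alone and -2.56 to -1.51 with an array left out. Cdkn2a minus the mitosis mean, MRT minus untreated at 8 d, was -2.70 against the replication list, -1.84 without rats 37, 38 and 47, and -2.33 to -2.19 with an array left out. MRT 48 h minus 6 h turned to 0.20 against the replication list, and MRT 15 d minus 8 d was 1.91 with the median of the mitosis list. The cause was not tested. With the rat as a replicate block (correlation 0.157) the MRT effect at 8 d, tumour minus contralateral, was -2.49 (limma, adjusted p = 0.00334), and that of BB was -1.19 (adjusted p = 0.298). These were the 2 tests run with the block, and it changed neither call. The number of genes called for BB went from 1103 to 1697.

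Counts of called genes moved by over 1.5 times in 25 of 31 comparisons with array weights, 16 of 31 in fits of the compared groups alone, 12 of 31 with the neuronal covariate and 76 of 194 with an array left out. Groups held 3 to 9 arrays. The filter on dim genes used the mean over both tissues, and within contralateral arrays alone it would have removed Cdkn2a. The median contralateral Cdkn2a value stood at percentile 12.1 of its array, so differences among those arrays rest on dim values.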

Other observations

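Microglial and endothelial genes moved early in both tissues, when Cdkn2a was not called. At 6 h after MRT 4 of 6 measured microglial genes were lower than in untreated tumours (limma, median -0.92, against 0.408% of all genes) and 5 of 6 were lower in the opposite hemisphere (median -1.40, against 2.86% of all genes). Of 11 endothelial genes 3 were lower in tumours and 6 in the opposite hemisphere, while 3 of 5 neutrophil genes were higher in tumours, against 1.01% of all genes, and 4 in the opposite hemisphere, against 5.36%. At 8 d after MRT 7 of 10 astrocyte genes were higher in tumours and 1 lower, 3 of 6 microglial genes were higher and 1 lower, 4 of 5 neutrophil genes and 1 of 2 B cell genes were higher, and 2 of 11 endothelial genes were higher and 2 lower. The shares of all genes were 21.8% higher and 26.1% lower, so the endothelial counts lay below them.

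In the opposite hemisphere the ARF and p53 list had 11 of 22 genes higher and 1 lower at 48 h and 10 higher and 1 lower at 8 d after MRT. Of all genes 13.2% were higher and 19% lower at 48 h, and 5.71% and 2.19% at 8 d. Of 23 genes linked to senescence 10 were higher there at 6 h, against 5.36% of all genes, and 5 at 8 d. In BB tumours at 8 d 5 were higher and 5 lower, against 8.36% and 14.5% of all genes.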
